A study of Mus musculus with 12 samples.

Results

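The comparison described here is the response of wild-type (WT) mouse CD4+ T cells to Th17-polarizing cytokines, measured in 3 WT libraries from baseline medium with the cytokines and 3 WT libraries from baseline medium alone, 6 of the 12 libraries of the study. Of 23991 gene names in the files, 9927 reached 1 FPKM in at least 3 of these 6 libraries and were tested. FPKM gives a gene's fragments per kilobase of transcript, scaled to the number of mapped fragments. It thus accounts for transcript length and for the number of mapped fragments, but not for other differences between libraries. The other 6 libraries came from Adcy10-/- cells, which lack soluble adenylyl cyclase, and were used here for the estimate of spread and for a test of whether the response differed.

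All 6 libraries came from male C57BL/6 WT mice of 8 to 10 weeks. CD4+ cells from spleen or lymph node were enriched by removing other cells on magnetic beads, so any cells that the beads missed stayed in the culture. They were kept for 18 hours on plates coated with antibody to CD3 (10 µg/mL). The protocol lists blocking antibodies to interferon-γ and to IL-4 (1 µg/mL each) and a costimulating antibody to CD28 (2 µg/mL). Its cytokines are IL-23 and IL-1β, both at 20 ng/mL, and IL-6 at 25 ng/mL. It does not say which of these additions baseline medium also held, and both sets of libraries carry Th17 in their names. The labels do not say whether replicates 1, 2 and 3 came from separate mice, so the p-values measure only the spread between these libraries, which may be technical. In bulk RNA, fewer cells of a type and less RNA per cell cannot be told apart.

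Th17 cells are helper T cells that defend barrier tissues by releasing IL-17A, IL-17F and IL-22, and they are a source of inflammation in psoriasis. IL-6 acts through the receptor subunit gp130 and JAK kinases to activate the transcription factor STAT3. IL-1β signals through MyD88 to NF-κB, and IL-23 maintains the lineage through its own receptor and STAT3. Interferon-γ, the signature cytokine of Th1 cells, turns on GTPases that attack vacuoles holding microbes.

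The 6 libraries summed to between 551022 and 594750 FPKM, and the read depth behind them is unknown. The first principal component (42.5% of the variance) placed the 3 baseline libraries at -17.0 to -7.6 and the 3 cytokine libraries at 11.6 to 14.7. The second (31.8%) set replicate 1 of both media, at -16.7 and -14.7, apart from the other four libraries at 5.8 to 10.5. The 9 CD4 T cell markers found in the files were all expressed, with a sum of 1688 to 2075 FPKM in baseline medium and 1821 to 2104 FPKM with cytokines. Their sum was higher with cytokines in every numbered pair. The 14 B cell markers summed to 106, 330 and 291 FPKM at baseline and to 76.9, 296 and 260 FPKM with cytokines for replicates 1, 2 and 3. They followed the replicate number more than the medium, but were also lower with cytokines in every numbered pair. Macrophage and monocyte markers (12 in the files, 2 tested) summed to 66.4, 20.7 and 24.9 FPKM against 107, 30.0 and 45.9 FPKM, and neutrophil markers (9 in the files, 2 tested) to 6.54, 5.48 and 21.1 FPKM against 14.6, 13.4 and 68.2 FPKM. Both sums were higher with cytokines in every numbered pair. A single macrophage and monocyte marker reached 93.5 FPKM, against a highest sum of 107 FPKM, so that sum rested mostly on 1 gene. The part of these cells in the results below was not tested.

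**Figure D1:**
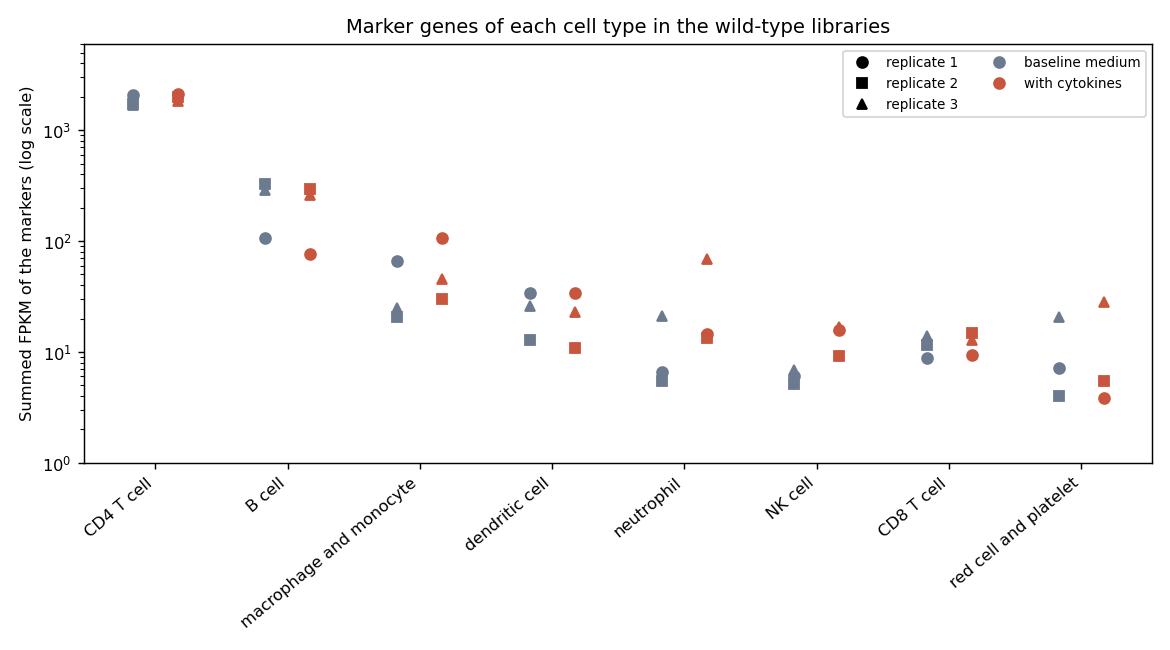
Summed FPKM of marker genes for each cell type (log axis), for 3 libraries in baseline medium (grey) and 3 with cytokines (red), with a symbol for each replicate number. CD4 T cell markers stood at 1688 to 2104 FPKM in all 6 libraries, and B cell markers were lowest in replicate 1 of both media. Within each number, neutrophil, macrophage and CD4 T cell sums were higher with cytokines and B cell sums were lower.

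With limma on log2(FPKM + 1) and Benjamini-Hochberg adjustment over the 9927 genes, 264 genes (2.66%) were higher with cytokines and 229 (2.31%) were lower at an adjusted p under 0.05. Of these 493 genes (4.97%), 45 rose and 25 fell at least 2-fold (0.453% and 0.252% of those tested). The 493 changes were mostly small, with a median size of 0.51 on the log2 scale, and the median over all tested genes was -0.01. In all 493 the 3 cytokine libraries lay on one side of the 3 baseline libraries, which was the case for 20.6% of all tested genes (10.4% higher and 10.2% lower). Where a lack of overlap is given below for a gene that passed, it therefore adds no further support. With the replicate number as a block within genotype, 824 genes (8.30%) were higher and 776 (7.82%) lower, and all 493 were among them. Counts within gene lists below are to be read against these shares of all tested genes, without and with the block. Single libraries weighed on the counts: without WT baseline replicate 2, 88 were higher and 77 lower, and without WT cytokines replicate 1, 134 and 131. The lower genes numbered 139 when baseline replicate 1 was left out and 119 when replicate 2 with cytokines was. In each of 12 fits that left out 1 library, 154 of the 493 passed.

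**Figure D2:**
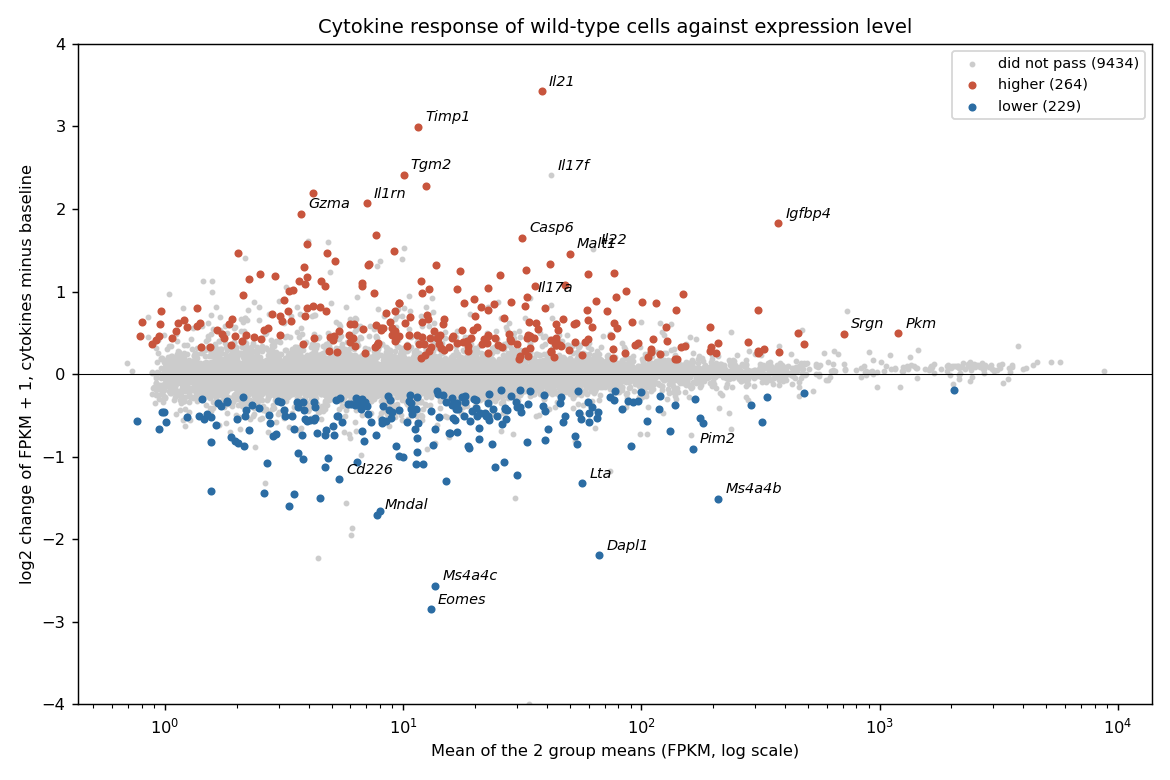
Log2 change of FPKM + 1 (cytokines minus baseline) against the mean of the group means in FPKM (log axis) for tested genes, with 264 higher genes in red, 229 lower genes in blue and the rest in grey. Il21 and Eomes lie at the extremes of the named genes, Il17f is grey although its change is large, and 2 genes lie outside the plotted range.

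Among secreted cytokines, Il21 changed most. Il21 encodes a cytokine that acts on B cells and feeds back on Th17 cells through STAT3. Its level was 2.58, 4.40 and 13.4 FPKM in baseline replicates 1 to 3 and 70.3, 64.3 and 73.8 FPKM with cytokines. Every cytokine library lay far above the highest baseline library (log2 change 3.43, SE 0.49, adjusted p = 0.00287). Il10, an anti-inflammatory cytokine, stood at 2.31, 1.49 and 2.55 FPKM and then at 5.49, 5.08 and 6.23 FPKM, without overlap (log2 change 1.10, SE 0.15, adjusted p = 0.00246). Il1rn, which encodes the antagonist of the IL-1 receptor and thus opposes one of the added cytokines, went from 1.70, 1.00 and 3.81 to 11.8, 7.93 and 15.8 FPKM (log2 change 2.07, SE 0.39, adjusted p = 0.0108). These were the 3 of 21 tested cytokine genes that rose, and 0 fell. The median of the 21 was 0.45. The block raised the counts to 11 higher and 3 lower.

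The effector cytokines that name the lineage were already transcribed at baseline and varied widely between libraries. Il17a was at 16.6, 11.02 and 46.5 FPKM in baseline medium and at 56.4, 21.4 and 52.8 FPKM with cytokines, so the groups overlapped. Within a replicate number the difference in log2(FPKM + 1) was 1.70, 0.89 and 0.18, positive in each pair but close to 0 in the pair with the highest baseline. The mean change of 0.93 (95% interval -0.37 to 2.23) did not pass (adjusted p = 0.449), and it passed with the block (adjusted p = 0.0434).

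Il17f, the closest relative of Il17a, was at 10.3, 3.19 and 34.0 FPKM and then at 90.0, 33.5 and 78.7 FPKM. Only the lowest cytokine library fell inside the baseline range (log2 change 2.41, interval 0.60 to 4.22, adjusted p = 0.129, or 0.0149 with the block). Il22, whose product acts on epithelial cells, was at 21.2, 20.3 and 62.6 FPKM and then at 116, 58.6 and 98.5 FPKM (log2 change 1.51, adjusted p = 0.187, or 0.0483 with the block). For Il17a, Il17f and Il22 alike, replicate 3 was the highest of the baseline libraries and gave the smallest difference of the 3 pairs. Without a block, Il17a passed in 0, Il17f in 2 and Il22 in 1 of the 12 fits that left out 1 library.

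Il2, the T cell growth factor, was at 12.4, 16.8 and 24.2 FPKM at baseline and at 29.8, 34.0 and 32.8 FPKM with cytokines. The groups did not overlap, yet its log2 change of 0.87 did not pass (adjusted p = 0.103, or 0.00261 with the block). Ifng, which encodes interferon-γ, was at 24.0, 113 and 75.0 FPKM and then at 23.3, 49.5 and 31.6 FPKM. Replicates 2 and 3 were lower with cytokines while replicate 1 hardly differed (log2 change -0.81, adjusted p = 0.517, or 0.025 with the block). Csf2, which encodes GM-CSF, stayed between 2.34 and 3.98 FPKM in all 6 libraries (log2 change -0.27, adjusted p = 0.503).

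Type 2 cytokines did not move as a group. Il4 was at 18.0, 9.31 and 14.6 FPKM and then at 27.7, 15.7 and 15.1 FPKM (log2 change 0.45, adjusted p = 0.352, or 0.0308 with the block). Il5 was at 7.43, 3.75 and 1.79 FPKM against 1.19, 0.822 and 0.789 FPKM, a log2 change of -1.32 that missed the threshold (adjusted p = 0.0533) and passed with the block (0.00751). Il13 ranged from 20.1 to 38.5 FPKM over both media (adjusted p = 0.601).

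**Figure D3:**
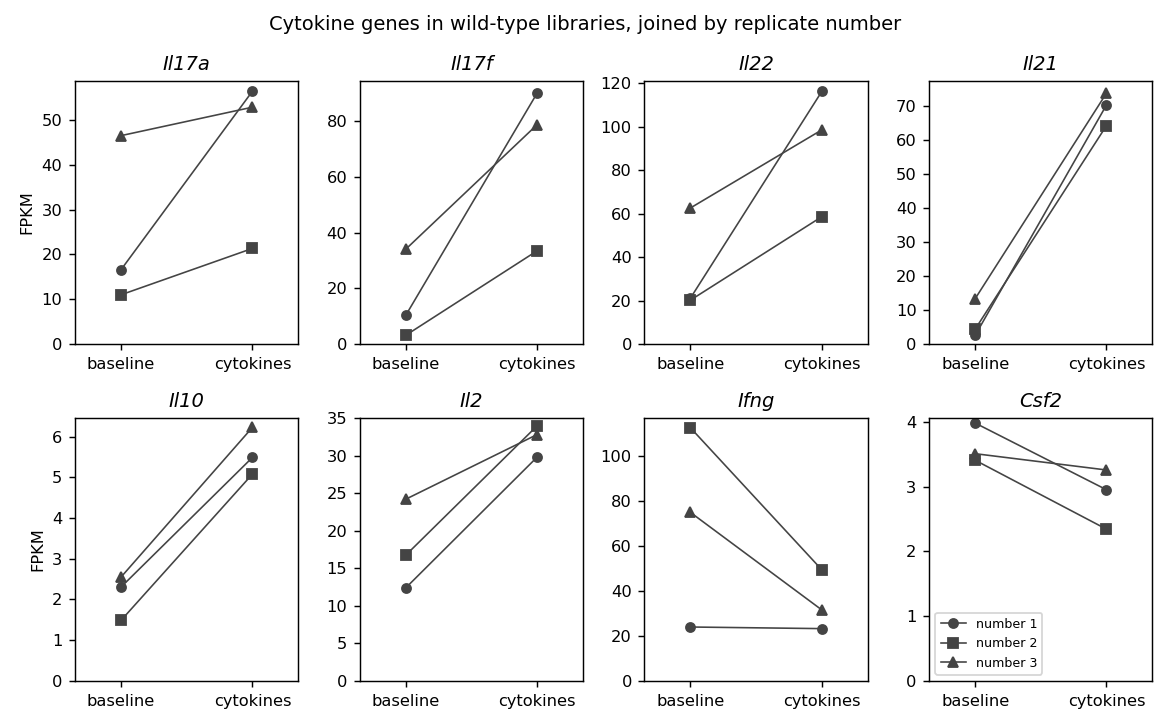
FPKM of 8 cytokine genes in baseline medium and with cytokines, with lines joining WT libraries of the same replicate number and each vertical axis starting at 0. Il21 and Il10 separate the media in all 3 pairs, while for Il17a, Il17f and Il22 the baseline library of replicate 3 is already high.

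The receptors that read these signals came next. Of 26 tested cytokine receptor genes 2 rose and 1 fell (11.5%, against 4.97% of all tested genes), with a median log2 change of 0.15. With the block 10 were higher and 5 lower, against 8.30% and 7.82% of all tested genes. Il21r, the receptor for IL-21, was at 66.9, 76.3 and 104 FPKM and then at 154, 142 and 148 FPKM (log2 change 0.86, SE 0.18, adjusted p = 0.0211). Il4ra, a subunit of the IL-4 receptor, was at 68.0, 58.1 and 86.3 FPKM and then at 154, 107 and 130 FPKM (log2 change 0.87, SE 0.20, adjusted p = 0.0309). Neither gene's groups overlapped, and they passed in 7 and 8 of the 12 fits that left out 1 library. Il10rb, a subunit shared by the receptors for IL-10 and IL-22, fell by 0.31 (adjusted p = 0.0233).

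The receptors for the added cytokines themselves were low or did not pass. Il6ra was at 10.3 to 11.2 FPKM at baseline and 10.4 to 14.1 FPKM with cytokines (log2 change 0.21, adjusted p = 0.555). Il6st, which encodes gp130, was at 14.4 to 18.0 and 10.8 to 14.8 FPKM (log2 change -0.29, adjusted p = 0.323, or 0.0245 with the block). Il1r1, the signaling receptor for IL-1, was at 0.311, 0.111 and 0.444 FPKM and then at 1.48, 0.702 and 1.34 FPKM, which left it just under the filter. Il23r reached at most 0.324 FPKM at baseline and 1.01 FPKM with cytokines and was not tested either.

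Downstream of these receptors, 2 of 11 genes for JAK kinases and STAT factors rose and 1 fell (median 0.09), or 3 and 3 with the block. Jak2, a kinase that IL-6 and IL-23 receptors use, was at 41.9, 35.0 and 46.1 FPKM and then at 65.9, 53.3 and 69.2 FPKM (log2 change 0.60, SE 0.12, adjusted p = 0.0129). Jak3, which serves the common gamma chain, rose by 0.38 (adjusted p = 0.0262). Stat4, the factor that IL-12 activates in Th1 cells, was at 37.4, 29.6 and 27.9 FPKM and then at 20.8, 18.8 and 21.2 FPKM (log2 change -0.61, adjusted p = 0.00812). Stat3 itself, at 59.0 to 79.1 FPKM in baseline medium and 75.1 to 78.2 FPKM with cytokines, did not pass (log2 change 0.17, adjusted p = 0.433).

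The list of STAT3 target genes held the largest share of increases among the lists with at least 9 tested members: 12 of 23 tested members rose and 0 fell, with a median log2 change of 0.86 against -0.01 over all tested genes. With the block 18 were higher and 1 lower, while 6 were higher without WT baseline replicate 2 or without WT cytokines replicate 1 and 7 without WT baseline replicate 1. Several members also stand in the cytokine and transcription factor lists, and the list was written with results of these data known. Socs3, the inhibitor that STAT3 induces to shut off gp130, was at 30.7, 24.8 and 33.7 FPKM and then at 89.5, 54.9 and 52.1 FPKM (log2 change 1.08, SE 0.26, adjusted p = 0.0383). Bcl3, an atypical IκB protein, rose by 0.77 (adjusted p = 0.026), Ier3 by 0.82 (adjusted p = 0.00878) and Nfil3, a basic leucine zipper repressor, by 1.24 (adjusted p = 0.0384). Socs1, another feedback inhibitor, was at 57.4 to 60.8 FPKM at baseline and at 123, 81.8 and 77.0 FPKM with cytokines (log2 change 0.62, adjusted p = 0.0439). Pim2, a survival kinase usually grouped with STAT targets, was placed with the SOCS and PIM genes and is not in the STAT3 target list. It went the other way, from 220, 226 and 198 FPKM to 109, 118 and 115 FPKM (log2 change -0.91, SE 0.07, adjusted p = 3.6e-05). That 0 members of the list fell thus depends on this placement. Socs3, Socs1 and Nfil3 passed in 6, 3 and 4 of the 12 fits that left out 1 library, and Pim2 in all 12.

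Of 20 tested Th17 transcription factors 6 rose and 0 fell, with a median of 0.47, or 13 and 1 with the block. The 6 became 3 without WT baseline replicate 2, 10 without WT baseline replicate 3 and 11 without Adcy10-/- baseline replicate 1. Maf, which drives Il10 and Il21 in several helper lineages, was at 2.04, 1.56 and 2.44 FPKM and then at 6.46, 4.39 and 6.72 FPKM (log2 change 1.18, SE 0.16, adjusted p = 0.00245). Fosl2, an AP-1 subunit, was at 6.23, 7.86 and 9.05 FPKM and then at 17.4, 14.2 and 16.9 FPKM (log2 change 0.99, SE 0.18, adjusted p = 0.00871). Batf, the AP-1 factor that opens Th17 loci together with IRF4, was far more abundant, at 76.4, 88.0 and 144 FPKM and then at 178, 198 and 212 FPKM (log2 change 0.97, adjusted p = 0.0483). None of these 3 overlapped between media. Maf and Fosl2 passed in all 12 fits that left out 1 library, and Batf in 3.

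The list also held as risers Arid5a, an RNA-binding protein that stabilizes inflammatory transcripts (log2 change 0.94, adjusted p = 0.0104), and Satb1, a chromatin organizer (0.78, adjusted p = 0.0253). Irf4, at 119 to 162 FPKM in baseline medium and 135 to 160 FPKM with cytokines, did not pass (log2 change 0.04, adjusted p = 0.871). Hif1a, the hypoxia-inducible factor, was at 85.7, 83.6 and 114 FPKM and then at 153, 119 and 165 FPKM, just short of the threshold (log2 change 0.62, adjusted p = 0.0541, or 0.00219 with the block). Ahr, the aryl hydrocarbon receptor gene, passed only with the block (log2 change 0.62, adjusted p = 0.0954, or 0.00279). Rora stayed at or below 1.03 FPKM and was not tested.

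Factors of other lineages moved selectively. Eomes, the T-box factor of cytotoxic cells, showed the largest fall among the named genes, from 26.6, 25.8 and 18.7 FPKM to 2.61, 2.15 and 2.42 FPKM (log2 change -2.85, SE 0.16, adjusted p = 1.15e-05). Its relative Tbx21, the Th1 master factor, ranged from 9.35 to 30.9 FPKM at baseline and from 14.0 to 25.6 FPKM with cytokines and gave a change of 0.01 (adjusted p = 0.992). Gata3 of Th2 cells gave 0.00 (adjusted p = 1). Foxp3, the regulatory T cell factor, was at 13.3, 12.2 and 17.4 FPKM and then at 18.9, 19.4 and 24.7 FPKM (log2 change 0.53, adjusted p = 0.0456), and it passed in 2 of the 12 fits that left out 1 library. Tox2, a factor of follicular helper cells, rose by 1.16 (adjusted p = 0.0138) while its paralog Tox fell by 0.43 (adjusted p = 0.0233).

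Effector genes that pair with Eomes in cytotoxic and Th1 cells did not all follow it. Of 16 tested Th1 genes 4 fell (Eomes, Fasl, Xcl1 and Stat4) and 1 rose (the chemokine receptor gene Cxcr3, by 0.72, adjusted p = 0.0206), with a median of 0.04 (5 lower and 4 higher with the block). Fasl, the ligand of the death receptor Fas, was at 7.06, 5.59 and 4.05 FPKM and then at 1.81, 1.55 and 0.84 FPKM (log2 change -1.45, SE 0.22, adjusted p = 0.00346). Gzma, the granzyme A gene, went the other way, from 0.252, 0.663 and 2.17 FPKM to 5.87, 4.57 and 8.80 FPKM (log2 change 1.94, SE 0.35, adjusted p = 0.00903). Gzma is also 1 of 7 NK cell markers, of which 2 were tested. The sum of the 7, which includes Gzma itself, was 5.12 to 6.93 FPKM at baseline and 9.19 to 16.9 FPKM with cytokines. It is therefore no separate measure of NK cells, and their part in the change of Gzma was not tested. Srgn, the proteoglycan core of secretory granules, rose from 574 to 619 FPKM at baseline to 786 to 910 FPKM (log2 change 0.49, adjusted p = 0.00448).

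**Figure D4:**
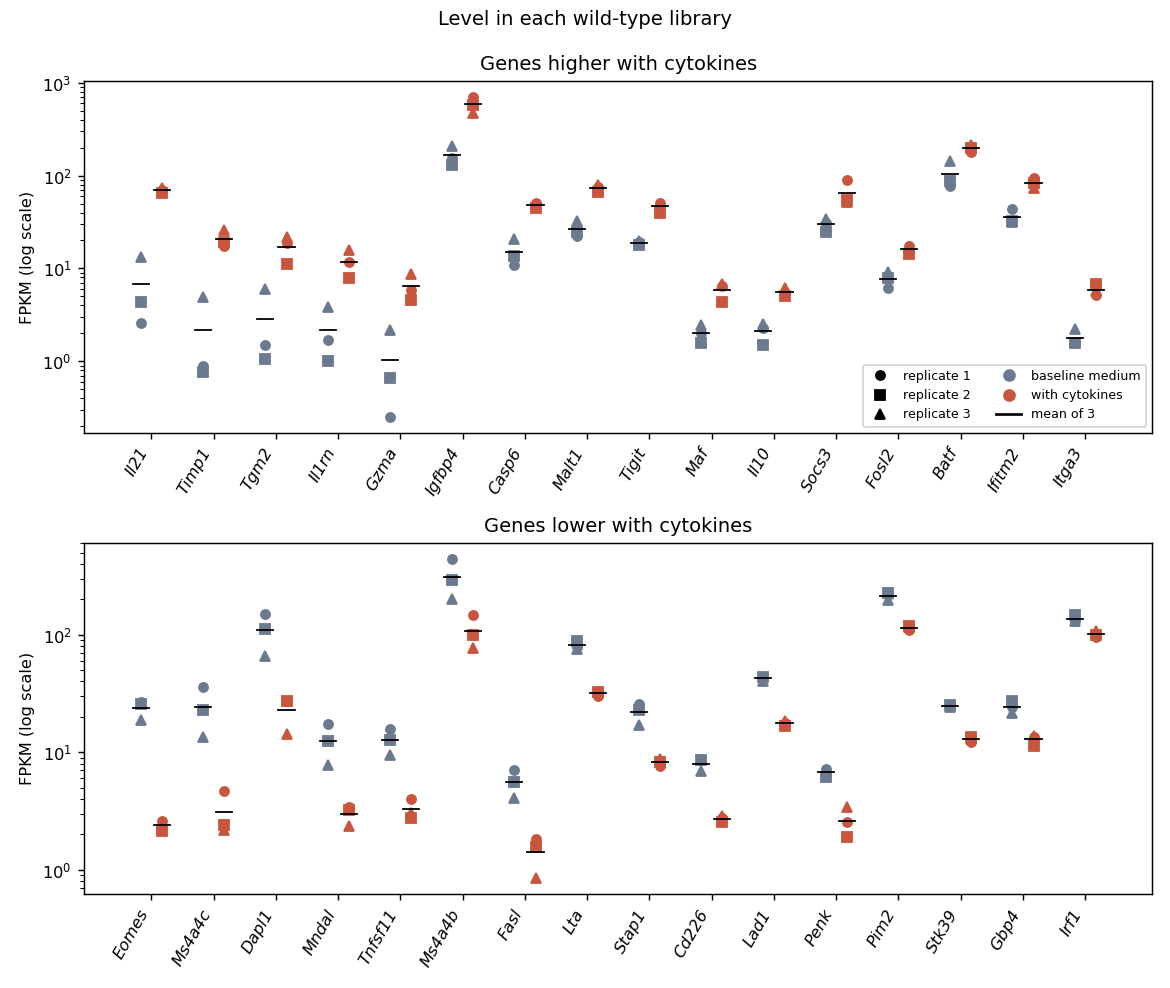
FPKM (log axis) of 16 genes that were higher and 16 that were lower with cytokines, in each of 3 baseline libraries (grey) and 3 cytokine libraries (red), with a symbol for each replicate number and a bar at the mean of 3. For the genes shown, as for all genes that passed, the groups do not overlap, and baseline replicate 3 often lies closest to the cytokine libraries.

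Receptors that compete for shared ligands moved in opposite directions. Tigit, an inhibitory receptor, was at 19.2, 17.7 and 19.6 FPKM and then at 51.0, 39.7 and 49.1 FPKM (log2 change 1.26, SE 0.08, adjusted p = 2.18e-05). Cd226, the activating receptor that binds the same ligand as TIGIT, was at 8.50, 8.51 and 6.97 FPKM and then at 2.74, 2.54 and 2.87 FPKM (log2 change -1.27, SE 0.09, adjusted p = 3.6e-05). Cd96, another receptor of this group, was at 19.1, 12.4 and 9.76 FPKM and then at 6.14, 6.20 and 6.04 FPKM (log2 change -1.0, SE 0.25, adjusted p = 0.0454). In each case the groups did not overlap. Tigit and Cd226 passed in all 12 fits that left out 1 library, Cd96 in 3.

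Among 18 tested inhibitory and costimulatory receptors 5 rose and 4 fell, with a median of 0.07, or 3 and 3 without WT baseline replicate 2. The other risers were Ctla4, which removes CD80 and CD86 from antigen-presenting cells (0.63, adjusted p = 0.0225), Lag3 (0.42, adjusted p = 0.00529), Cd5 (0.39, adjusted p = 0.0135) and Cd6 (0.38, adjusted p = 0.00145). The other members that fell were Cd160 (-0.81, adjusted p = 0.00146) and Cd274, which encodes PD-L1 (-0.57, adjusted p = 0.0061). The changes of Pdcd1 (-0.07), Cd28 (-0.01) and Icos (0.25) did not pass, and Icos passed with the block (adjusted p = 0.0419).

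Ligands of the TNF superfamily fell: 5 of 11 tested members were lower and 0 higher, with a median of -0.36, and 10 of the 11 changes were below 0 (6 lower and 1 higher with the block). Tnfsf11, which encodes RANKL, the signal for osteoclasts, was at 15.7, 12.7 and 9.55 FPKM and then at 4.03, 2.75 and 3.03 FPKM (log2 change -1.66, SE 0.17, adjusted p = 0.000435). Lta, which encodes lymphotoxin alpha, was at 79.0, 89.3 and 75.3 FPKM and then at 30.0, 32.7 and 32.8 FPKM (log2 change -1.32, SE 0.14, adjusted p = 0.000419). Tnfsf4, which encodes OX40 ligand, was at 3.02, 3.29 and 2.34 FPKM and then at 1.37, 1.17 and 0.998 FPKM (log2 change -0.83, adjusted p = 0.00428). Fasl and Cd40lg (-0.48, adjusted p = 0.0285) were the others. Ltb, the membrane partner of lymphotoxin alpha, ranged from 236 to 413 FPKM and from 213 to 283 FPKM and did not pass (-0.31, adjusted p = 0.427, or 0.015 with the block). Of 19 TNF receptor genes 1 rose (Tnfrsf23) and 1 fell (Tnfrsf9, which encodes 4-1BB, by 0.38, adjusted p = 0.0288), and with the block 7 were higher and 2 lower.

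Interferon-inducible GTPases showed the largest share of decreases among the lists with at least 9 tested members: 13 of 18 tested members fell and 0 rose, with a median log2 change of -0.69. These proteins form coats on vacuoles that hold bacteria or parasites. Gbp10 was at 6.59, 7.41 and 6.41 FPKM and then at 2.56, 2.402 and 3.69 FPKM (log2 change -1.02, SE 0.13, adjusted p = 0.00145). Iigp1 was at 15.3, 15.1 and 15.4 FPKM and then at 6.98, 6.20 and 9.63 FPKM (log2 change -0.94, SE 0.15, adjusted p = 0.00464). Without WT baseline replicate 2, 9 of the 18 fell. Guanylate-binding proteins have near-identical copies and the deposited values do not show how shared reads were split, so single members are uncertain.

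Guanylate-binding protein genes lie in separate chromosomal clusters, by their neighbors in RefSeq (GRCm38.p6). In the cluster that holds Gbp4, Gbp6, Gbp8, Gbp9 and Gbp10, these 5 genes fell, with log2 changes of -0.88, -0.99, -0.73, -0.68 and -1.02, while Gbp11 in the same cluster, at 0.659 to 1.64 FPKM, did not pass (0.01). In the other, Gbp5 fell by 0.39 (adjusted p = 0.0211) and Gbp7 passed only with the block (-0.46, adjusted p = 0.0745, or 0.0295). Its neighbors Gbp2 and Gbp3 did not pass, at 0.28 and 0.03. Gbp2 was by far the most abundant of the family, at 219, 244 and 307 FPKM and then at 344, 271 and 315 FPKM. The difference between the clusters was not tested.

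The immunity-related GTPases fell together. Tgtp1 was at 45.9, 52.5 and 52.8 FPKM and then at 26.5, 27.0 and 32.4 FPKM (log2 change -0.80, SE 0.08, adjusted p = 0.000355). Its near-identical copy Tgtp2 gave -0.82. Irgm1 (-0.84), Irgm2 (-0.59), Igtp (-0.53) and Ifi47 (-0.59) were lower with adjusted p-values of 0.0157, 0.00194, 0.00162 and 0.000755. For each of these 6 genes the 3 cytokine libraries lay below the 3 baseline libraries, and all 493 genes that passed were separated in this way.

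Promoters of these genes were read from RefSeq (GRCm38.p6), as the 250 bases before the transcription start, because the members moved together and interferon is known to act through short promoter motifs. The 6 shown each hold a match to a pattern below. They are 4 GTPase genes and Ifit1, all lower with cytokines, and Socs3, which was higher. Capitals mark GAAANNGAA, a pattern of interferon response elements, and TTCNNNGAA, a pattern bound by STAT dimers, on either strand (as TTCNNTTTC on the other strand for the first). For Irgm1 and Ifit1 the capitals mark the first pattern and for Socs3 the second, and adjacent or overlapping matches merge into 1 run.
Tgtp1 (chr11:48992247-48992496, minus strand): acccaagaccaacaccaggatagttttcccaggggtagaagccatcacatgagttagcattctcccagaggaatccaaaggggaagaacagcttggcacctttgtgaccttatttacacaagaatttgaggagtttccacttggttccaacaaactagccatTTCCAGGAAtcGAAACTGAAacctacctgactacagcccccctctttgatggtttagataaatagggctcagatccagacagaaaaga
Irgm2 (chr11:58214727-58214976, plus strand): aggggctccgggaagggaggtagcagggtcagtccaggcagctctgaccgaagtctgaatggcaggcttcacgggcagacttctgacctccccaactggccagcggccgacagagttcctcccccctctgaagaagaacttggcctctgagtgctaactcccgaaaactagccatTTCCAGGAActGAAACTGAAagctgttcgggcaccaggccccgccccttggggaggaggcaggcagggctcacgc
Igtp (chr11:58199306-58199555, plus strand): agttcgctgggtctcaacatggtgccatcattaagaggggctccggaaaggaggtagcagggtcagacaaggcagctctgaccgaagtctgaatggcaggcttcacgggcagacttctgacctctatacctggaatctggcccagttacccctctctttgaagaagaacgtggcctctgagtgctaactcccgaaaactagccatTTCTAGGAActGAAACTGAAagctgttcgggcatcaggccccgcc
Irgm1 (chr11:48871421-48871670, minus strand): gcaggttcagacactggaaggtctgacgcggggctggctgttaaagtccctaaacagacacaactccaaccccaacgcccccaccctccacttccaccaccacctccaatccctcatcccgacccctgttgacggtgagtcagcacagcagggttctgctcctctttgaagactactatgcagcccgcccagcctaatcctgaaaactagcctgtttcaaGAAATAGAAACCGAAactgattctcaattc
Ifit1 (chr19:34640639-34640888, plus strand): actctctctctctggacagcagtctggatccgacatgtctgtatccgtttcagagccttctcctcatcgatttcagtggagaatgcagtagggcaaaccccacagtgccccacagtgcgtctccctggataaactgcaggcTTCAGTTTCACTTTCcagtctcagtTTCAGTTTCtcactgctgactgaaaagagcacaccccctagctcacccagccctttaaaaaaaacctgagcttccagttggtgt
Socs3 (chr11:117969367-117969616, minus strand): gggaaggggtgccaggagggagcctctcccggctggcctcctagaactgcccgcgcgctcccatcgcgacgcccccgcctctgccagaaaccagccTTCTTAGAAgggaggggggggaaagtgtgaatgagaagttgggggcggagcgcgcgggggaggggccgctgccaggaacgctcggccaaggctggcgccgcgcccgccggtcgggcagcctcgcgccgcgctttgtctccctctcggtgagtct
In Tgtp1, Irgm2 and Igtp a TTCNNNGAA match is followed after 2 bases by a GAAANNGAA match, and Tgtp2 has the same arrangement. Of 10135 promoters matched to tested genes, 4 hold the patterns in that arrangement (0.0395%), and all 4 belong to genes that were lower with cytokines. Tgtp1 and Tgtp2 are near-identical copies and Igtp and Irgm2 are related neighbors, so the 4 promoters are not independent, and the arrangement was noticed in these sequences. GAAANNGAA alone stood in 37 of 239 promoters of genes that fell (15.5%), in 24 of 270 of genes that rose (8.9%), in 640 of the 10135 (6.3%) and in 7.1% of all 32851 promoters in the table. Leaving out the GTPase list, the share among genes that fell was 13.4%. Of the 18 tested GTPase genes 10 matched a promoter, and Gbp4, Gbp6, Gbp8, Gbp9 and Gbp10 were not among them. GAAANNGAA stood in 9 of the 11 promoters of these 10 genes. The 9 included 1 promoter each of Gbp2 and Gbp3, which did not pass, while that of Ifi47, which fell, held neither pattern. Whether the pattern goes with the decrease was not tested. TTCNNNGAA stood in 1 of 20 promoters of the STAT3 target list, that of Socs3 (5.0%), and in 6.0% of those of tested genes. A match describes letters in this window and shows no binding.

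Other interferon-stimulated genes were divided. Of 39 tested antiviral genes 4 fell and 2 rose, with a median of -0.06, or 11 and 4 with the block. The 4 became 1 without WT baseline replicate 2 and 2 without WT cytokines replicate 1 or 2. Ifit1, which blocks viral RNA, was at 4.16, 3.31 and 1.87 FPKM and then at 1.05, 0.947 and 1.59 FPKM (log2 change -0.87, adjusted p = 0.0177). Ifitm2 and Ifitm3, membrane proteins that restrict virus entry, rose instead. Ifitm2 was at 43.2, 32.1 and 31.7 FPKM and then at 93.1, 83.7 and 74.3 FPKM (log2 change 1.22, SE 0.12, adjusted p = 0.000355). Ifitm3 was at 16.0, 12.4 and 16.7 and then at 41.7, 33.0 and 33.0 FPKM (log2 change 1.21, adjusted p = 0.00503). Neither overlapped between media. The DNA-sensing Ifi200 family had 2 of 4 tested members lower, Mndal (-1.71, adjusted p = 0.00343) and Ifi203 (-1.50, adjusted p = 0.00565), and all 4 changes were below 0 and passed with the block.

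Among the 9 interferon regulatory factors 1 passed, Irf1, and 4 were lower with the block. Irf1, which mediates much of the response to interferon-γ, was at 131, 146 and 130 FPKM and then at 95.3, 100 and 107 FPKM (log2 change -0.43, SE 0.06, adjusted p = 0.00364). Of 46 proteasome subunits 4 fell and 0 rose, with a median of 0.04, and these were the inducible subunits Psmb8 (-0.28) and Psmb9 (-0.34) and the activator subunits Psme1 (-0.23) and Psme2 (-0.37), all of which interferon-γ is known to induce. Of the 4, 1 passed without WT baseline replicate 2, and 2 passed without WT baseline replicate 3 or without WT cytokines replicate 1. Psmb9 was at 66.0, 66.1 and 67.4 FPKM and then at 50.7, 52.3 and 54.0 FPKM (adjusted p = 0.00417). Ifng transcript levels stand above, and the labels list a blocking antibody to the protein without saying in which medium, so its part was not tested.

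Matrix proteins and protease inhibitors included 6 of 19 tested members that rose and 2 that fell (median 0.32), or 10 and 2 with the block and 3 and 0 without WT baseline replicate 2. Without WT cytokines replicate 1, 1 fell. Timp1, an inhibitor of metalloproteinases, was at 0.897, 0.762 and 4.92 FPKM and then at 17.4, 19.3 and 25.9 FPKM (log2 change 3.00, SE 0.55, adjusted p = 0.0103). Tgm2, a protein-crosslinking transglutaminase, was at 1.505, 1.06 and 5.93 FPKM and then at 18.9, 11.2 and 21.6 FPKM (log2 change 2.42, SE 0.45, adjusted p = 0.0109). Serpinf1 (1.47), Ecm1 (1.22), Lgals1 and Adam15 completed the increases, while Adam10 and Adamts6 fell. Timp1 and Tgm2 did not overlap between media, and baseline replicate 3 was the highest baseline library for both.

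Further large increases were seen in genes of several roles. Igfbp4, a binding protein for insulin-like growth factors that marks naive T cells, was at 155, 132 and 208 FPKM and then at 701, 581 and 470 FPKM (log2 change 1.83, SE 0.30, adjusted p = 0.00529). Casp6, an executioner caspase, was at 10.9, 13.6 and 20.7 FPKM and then at 51.1, 45.0 and 48.3 FPKM (log2 change 1.65, SE 0.17, adjusted p = 0.000355). Malt1, the protease that links the T cell receptor to NF-κB, was at 22.5, 24.7 and 32.0 FPKM and then at 75.2, 67.0 and 78.5 FPKM (log2 change 1.46, SE 0.14, adjusted p = 0.000291). In these 3 genes every cytokine library lay well above the highest baseline library. Sgk1, a salt-sensing kinase known to stabilize the Th17 state, was at 3.82, 3.06 and 3.83 FPKM and then at 14.9, 8.87 and 8.75 FPKM (log2 change 1.34, SE 0.25, adjusted p = 0.00985). Itga3 (1.30), Flot1 (1.33), Gstm1 (1.37), Frmd4b (1.57) and Smim3 (1.68) rose without overlap as well.

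Large decreases outside the groups above included genes of Ms4a membrane proteins and Dapl1. Ms4a4b, a tetraspan protein of T cells, was at 445, 294 and 200 FPKM and then at 146, 99.3 and 76.5 FPKM (log2 change -1.51, SE 0.31, adjusted p = 0.0169). Its relative Ms4a4c was at 35.8, 23.0 and 13.5 FPKM and then at 4.67, 2.404 and 2.18 FPKM (log2 change -2.57, SE 0.33, adjusted p = 0.00146). Dapl1, a gene of naive and memory T cells, was at 152, 113 and 65.3 FPKM and then at 27.1, 27.3 and 14.2 FPKM (log2 change -2.19, SE 0.36, adjusted p = 0.00512). In each of the 3 genes the levels of both media were lowest in replicate 3 and the groups stayed apart. The naive and quiescence genes did not fall as a group. Of 25 tested members 3 fell and 2 rose (Igfbp4 and Satb1), with a median of 0.04. With the block 6 were lower and 5 higher. Adh1, an alcohol dehydrogenase, was at 6.88, 6.62 and 3.17 FPKM and then at 1.10, 1.38 and 0.808 FPKM (log2 change -1.60, adjusted p = 0.00878), also without overlap. Lad1 (-1.23, adjusted p = 0.000345) fell too. Stk39, a kinase of ion transport, showed a smaller decrease, at 25.1, 25.1 and 24.3 FPKM and then at 12.1, 13.4 and 13.0 FPKM (log2 change -0.90, SE 0.06, adjusted p = 2.18e-05).

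Genes of T cell receptor signaling and the immediate early response tended to split. Of 34 tested signaling genes 2 rose and 4 fell, or 4 and 9 with the block. The lower genes numbered 1 without WT baseline replicate 1, WT cytokines replicate 2 or WT cytokines replicate 3, and 2 without WT baseline replicate 2 or Adcy10-/- replicate 3 of either medium. Among those that fell were Trat1 (-0.87, adjusted p = 0.033), Ubash3a (-0.43, adjusted p = 0.00102) and Cblb (-0.35, adjusted p = 0.0479). Of 15 immediate early factors 3 fell and 1 rose, or 5 and 3 with the block. Nr4a3, an orphan nuclear receptor induced by antigen receptor signals, was at 26.4, 40.7 and 34.4 FPKM and then at 14.3, 13.4 and 16.9 FPKM (log2 change -1.12, SE 0.24, adjusted p = 0.0225). Egr3 was at 18.3, 22.4 and 18.7 FPKM and then at 12.2, 11.3 and 11.3 FPKM (log2 change -0.72, adjusted p = 0.00512). Penk, which encodes proenkephalin, fell by 1.13 (adjusted p = 0.0327).

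Metabolic lists moved by small amounts. Of 22 hypoxia-response genes 3 rose and 0 fell, with a median of 0.22 (10 and 1 with the block). Egln3, an oxygen-sensing prolyl hydroxylase, was at 4.54, 7.47 and 10.96 FPKM and then at 17.9, 18.3 and 23.3 FPKM (log2 change 1.33, adjusted p = 0.0429), and it passed in 3 of the 12 fits that left out 1 library. Of 29 genes of glycolysis and the pentose phosphate route 3 rose and 1 fell, with a median of 0.16 (13 and 2 with the block). Pkm, the pyruvate kinase, was at 872, 949 and 1164 FPKM and then at 1315, 1441 and 1429 FPKM (log2 change 0.50, adjusted p = 0.0203). Eno3, the muscle-type enolase, fell from 25.1, 29.3 and 25.0 FPKM to 12.6, 17.3 and 15.03 FPKM (log2 change -0.79, adjusted p = 0.00287). The core hypoxia motif ACGTG stood in 17 of 31 promoters of the hypoxia list (54.8%) and in 22.7% of those of tested genes. Among genes that rose the share was 20.4%, and among genes that fell 19.2%. The list was made of hypoxia-response genes, so its own share does not bear on the response to cytokines.

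Lysosomal proteases and metal-binding genes gave further examples. Ctsb, which encodes cathepsin B, was at 35.8, 34.7 and 38.5 FPKM and then at 53.1, 52.8 and 53.0 FPKM (log2 change 0.53, SE 0.05, adjusted p = 0.000345). Ctss, which encodes cathepsin S, fell from 77.8, 71.4 and 62.1 FPKM to 47.9, 53.0 and 50.2 FPKM (log2 change -0.47, adjusted p = 0.0103). The metallothionein genes Mt1 and Mt2 rose by 1.03 and 0.98 (adjusted p = 0.0276 and 0.0183). Of 83 cytosolic ribosomal protein genes 0 passed (median 0.09), nor did any of 41 cell cycle genes (-0.06), 22 cholesterol genes (-0.01), 20 tRNA synthetase genes (-0.02) or 21 heat shock genes (-0.03). In the same limma fit an unadjusted p under 0.05 was found for 6, 3, 1, 1 and 1 of them. Of the 83 ribosomal changes 79 were above 0, and their median depended on the scaling. It was 0.006 with quantile normalization and 0.096 with median-ratio scaling. With the block, 3 cell cycle genes were higher and 10 lower, 4 cholesterol genes and 1 tRNA synthetase gene were lower, and 1 heat shock gene was higher and 2 lower.

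**Figure D5:**
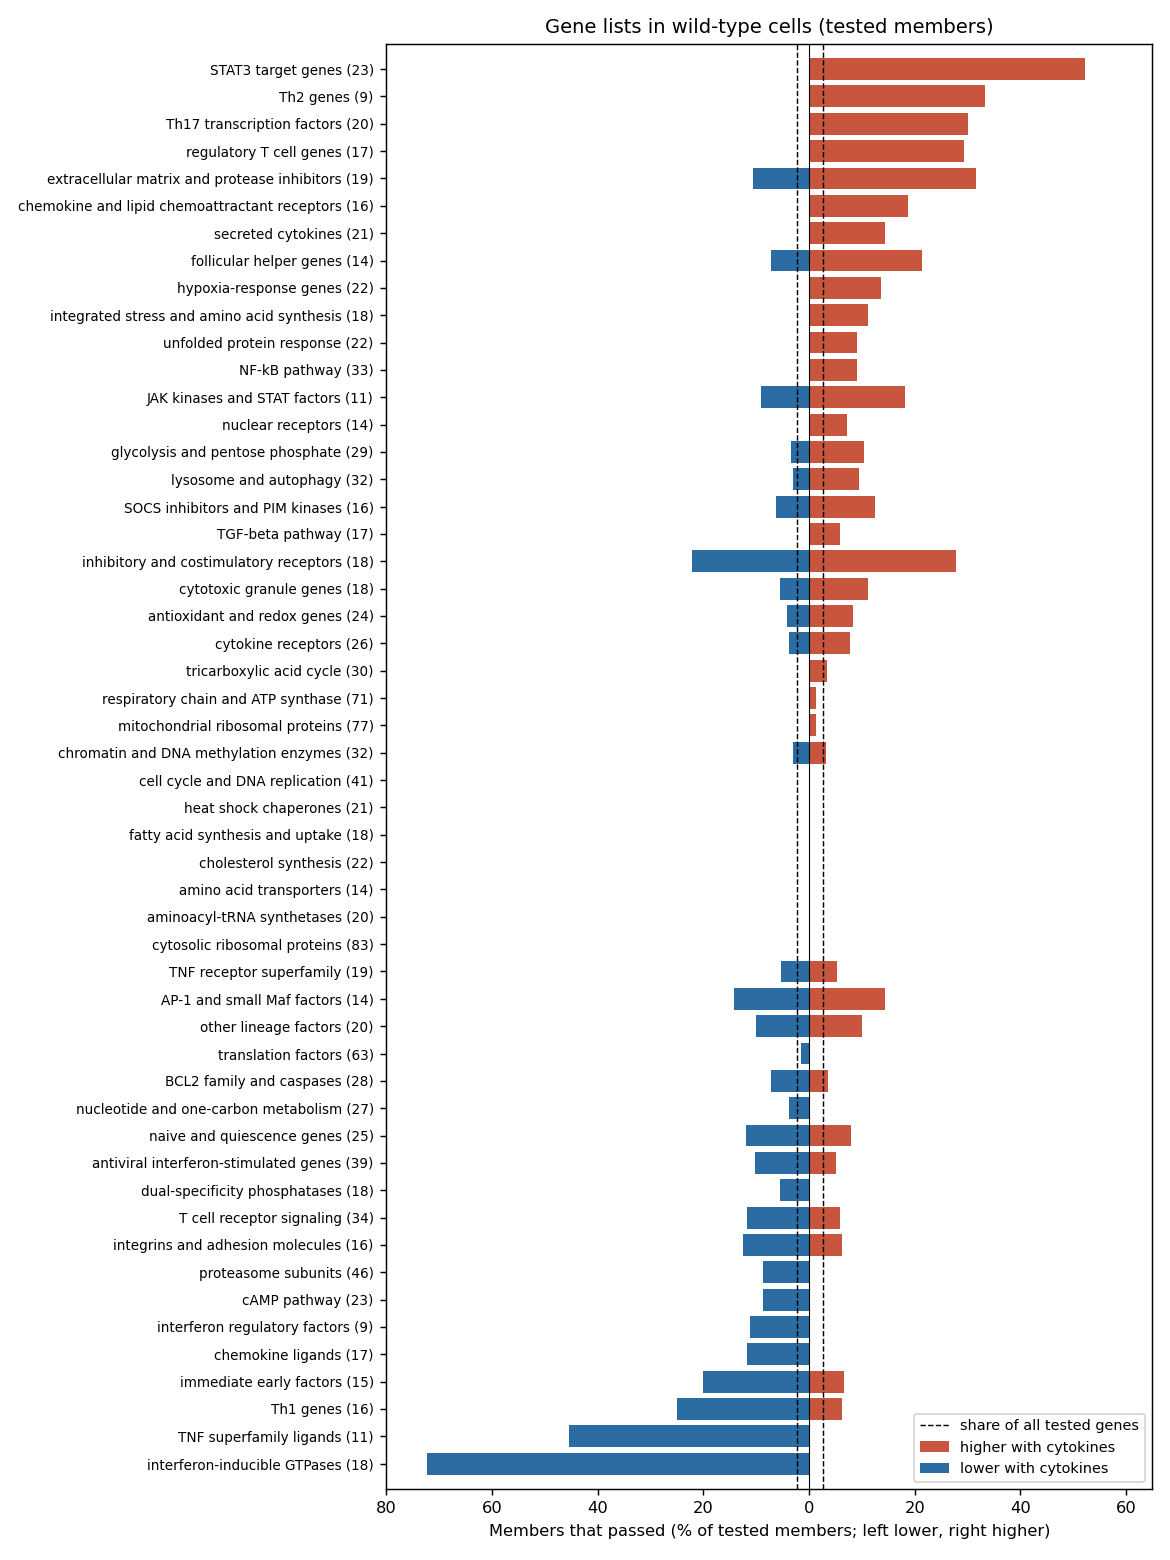
Share of tested members of each gene list (number tested in parentheses) that were higher (red, right) or lower (blue, left) with cytokines, in percent, for lists with at least 9 tested members, with dashed lines at the shares of all tested genes (2.66% and 2.31%). STAT3 targets top the increases with 12 of 23 and interferon-inducible GTPases the decreases with 13 of 18.

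Counts within gene lists rested on few libraries. Of 50 lists with at least 1 gene that passed, 40 had a count that moved by over 1.5 times without WT baseline replicate 2, 31 without WT cytokines replicate 1 and 25 without WT cytokines replicate 2. For the GTPases and the TNF superfamily ligands the count of lower genes stayed within 1.5 times in all 12 fits that left out 1 library.

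The baseline libraries were not equally distant from the cytokine libraries. Among the 264 genes that rose, replicate 3 was the highest baseline library for 166 (62.9%), replicate 1 for 83 (31.4%) and replicate 2 for 15 (5.7%). Over all tested genes those shares were 44.8%, 35.8% and 19.4%. Among the 229 genes that fell, replicate 3 was the lowest baseline library for 138 (60.3%), against 26.2% over all tested genes. The rule for passing used the same libraries, so these shares are given as a description.

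Whether Adcy10-/- cells responded differently was tested as the interaction of genotype and medium. In limma 0 of 9927 genes passed (0%), and 106 (1.07%) had an unadjusted p under 0.05. That share is below the share of 0.05 expected with no interaction. The fit had no block, so shared deviations of same-numbered libraries stayed in its error. With the block within genotype 0 genes passed as well. All 493 genes had the same sign of change in Adcy10-/- cells, as did 75.1% of all tested genes. The genotypes share no libraries, but they share the estimate of spread, and same-numbered libraries deviated together across genotypes (correlations of 0.122 to 0.628), so the responses were not independent. In the fit without a block the median standard error of the interaction was 0.12 on the log2 scale. A difference had to lie well above its error to pass adjustment over 9927 genes, so 0 genes passing does not show equal responses. For Il17a the interaction was -0.27 (SE 0.84) and for Il22 -0.66 (SE 0.84), so differences of 2-fold in either direction lie within their error.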

How the data were processed

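Polyadenylated RNA was sequenced from 12 libraries, 3 for each of 4 combinations of genotype and medium. Values are FPKM, computed and deposited by the authors for each gene. STAR 2.4.0f1, SAMtools 0.1.19, Cufflinks and HTSeq were used with mm9 per the submitters' processing notes, and no version is given for the last tools. FPKM keeps neither counts nor depth, so the spread between libraries is the only measure of error. Each file held 24488 entries for 23991 gene names, and entries of the 258 names listed several times (755 entries) were summed.

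Values were transformed as log2(FPKM + 1), which understates changes of genes near or below 1 FPKM, and the 9927 genes tested had 1 FPKM or more in 3 or more of the 6 WT libraries. The package limma (3.58.1, under R 4.3.3, with files read by the package data.table, version 1.17.8) fitted 4 group means over 12 libraries, with empirical Bayes moderation and a variance trend. The p-values of limma were adjusted by Benjamini and Hochberg's method across all 9927 genes, and genes under 0.05 passed. Each SE is limma's moderated one, and each interval covers 95%. The steps were tested on simulated data with independent noise in each library, without the shared deviations of same-numbered libraries seen here. Tables and figures used Python 3.11.15, numpy 2.4.6, pandas 2.3.3 and matplotlib 3.10.9.

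Whether replicate numbers pair the libraries was checked on deviations from group means: WT libraries of the same number correlated at 0.635, 0.361 and 0.401 for numbers 1, 2 and 3. Between the media, WT libraries of different numbers correlated at -0.428 to 0.138, and across genotypes WT baseline 3 and Adcy10-/- baseline 2 reached 0.413. Pairing was thus clearest for number 1. Every same-numbered WT pair lay above 0.1, so a fit with the number as a block within genotype was added. It is given beside a result where it changes the call or moves a count by over 1.5 times.

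Named genes were a panel of cytokines, factors and receptors, no more than 4 members from any list, the genes with the 10 smallest p-values, and in each direction the 15 with the greatest change. For the last, a gene had to pass, show no overlap of its groups and average at least 5 FPKM in a group, and receptor segments, small RNAs and predicted genes were skipped. Other genes were named after their values were seen, and some genes within the rule are not reported here. The genes and lists were chosen with earlier results of these data known. Alternatives were other pseudocounts, filters, scalings, variance models, rows and samples. Promoters came from RefSeq (GRCm38.p6), matched by symbol for 8003 of the 9927 genes and 386 of the 493 that passed. Since the files use mm9, no other coordinates are given.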

Additional observations from a re-analysis of the deposited data

How the results depend on the processing

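Counts depended most on how the libraries were paired and weighted. With the replicate block within genotype 824 genes were higher and 776 lower, with it across genotypes 741 and 748, with array weights 691 and 517, with only the 6 WT libraries 164 and 121, and with those and the replicate block 735 and 654, against 264 and 229. Leaving out each library in turn gave 88 to 304 higher, 77 to 234 lower and 37 to 88 changed at least 2-fold, the lowest each time without WT baseline replicate 2. Without the 4 libraries numbered 1, chosen after seeing the data, 219 were higher and 148 lower. Genes whose groups did not overlap numbered 2049, or 2049 to 3754 leaving out 1 library and 4783 without number 1, where fewer libraries make separation easier. The interaction had 0 genes, or 0 to 1 leaving out 1 library (1 without WT cytokines replicate 1 or Adcy10-/- cytokines replicate 1) and 1 without number 1. Other pseudocounts, filters, scalings, rows and the fit without a trend kept these counts within 1.5 times. The block ended no call among the named genes and added 12.

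Of 126 named genes that passed, 57 passed in all 12 fits that left out 1 library and 60 without WT baseline replicate 2. Signs turned only for named genes that did not pass. Leaving out 1 library gave log2 changes from -0.078 to 0.145 for Irf4, -0.505 to 0.306 for Tbx21, -0.124 to 0.139 for Gata3, -0.03 to 0.173 for Ccr6, -0.018 to 0.19 for Cd8b1, -0.461 to 0.725 for Blk and -0.69 to 1.187 for Hba-a1. Without number 1 the values were -0.06 for Irf4, -0.25 for Tbx21, -0.051 for Gata3 and -0.074 for Ccr6, and array weights gave -0.29 for Tbx21 and -0.24 for Blk. Pseudocounts of 0.1 and 0.5 gave -0.001 and 0.00 for Gata3. Depth is not known, so low genes carry an error that was not measured, and 3 libraries a group limit every comparison.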

Other observations

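A few migration genes passed, on both the ligand and the receptor side, while most of those tested did not. Ccl1, a chemokine of activated T cells, was at 7.05, 3.68 and 2.31 FPKM in baseline medium and at 1.01, 1.02 and 0.522 FPKM with cytokines (log2 change -1.45, SE 0.30, adjusted p = 0.0183, limma). Xcl1, which draws cross-presenting dendritic cells, was at 29.5, 46.0 and 32.7 FPKM and then at 12.2, 20.5 and 17.4 FPKM (log2 change -1.07, adjusted p = 0.0163). They were the 2 of 17 tested chemokine genes that passed (11.8%, against 4.97% of all tested genes), and for both the groups stayed apart. With the replicate block 4 of the 17 were higher and 3 lower, against 8.30% and 7.82% of all tested genes. Gpr18, a receptor for lipid ligands, was at 43.8, 42.6 and 52.4 FPKM and then at 76.1, 70.7 and 72.0 FPKM (log2 change 0.65, SE 0.08, adjusted p = 0.00127). It was 1 of 3 genes that rose among 16 chemoattractant receptors (18.8%, median 0.38), or 9 higher and 1 lower with the block. These counts, too, are to be read against the shares of all tested genes. Ccr6, the receptor that brings Th17 cells to skin and gut, stayed between 0.953 and 1.59 FPKM (log2 change 0.06, adjusted p = 0.912). Among 16 tested integrin and adhesion genes, Itga3 rose while Itga4 (-0.69, adjusted p = 0.0038) and Itgal (-0.28, adjusted p = 0.0417) fell. With the block 2 of the 16 were higher and 5 lower, against 8.30% and 7.82% of all tested genes.

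Of 23 tested genes of the cAMP pathway, to which the enzyme deleted in the other genotype belongs, 0 rose and 2 fell, with a median of -0.05. Ptger4, a receptor that raises cAMP in response to prostaglandin E2, was at 13.5, 13.1 and 10.9 FPKM and then at 9.50, 8.97 and 8.71 FPKM (log2 change -0.42, adjusted p = 0.0289). Creb1, the factor that cAMP-dependent kinase phosphorylates, fell by 0.30 (adjusted p = 0.0227). The 2 were 8.7% of the list, against 4.97% of all tested genes that passed. With the replicate block 4 of the 23 were higher and 7 lower, against 8.30% and 7.82% of all tested genes. The cAMP response element TGACGTCA stood in 1 of 270 promoters of genes that rose (0.4%), in 4 of 239 of genes that fell (1.7%) and in 2.8% of those of tested genes. In the TGF-β list, Smad3 rose from 12.8 to 13.9 FPKM at baseline to 18.2 to 20.3 FPKM (log2 change 0.47, adjusted p = 0.00497), the only one of 17 tested members to pass without the block. With it 2 of the 17 were higher and 1 lower.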
